A study of Mus musculus with 3 samples.

Results

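Lymphatic endothelial cells line the lymphatic vessels, and in the mouse hearts examined here they were found as barcodes of single-cell RNA-seq libraries by the genes they express. A barcode was counted as a lymphatic endothelial cell, or lymphatic cell for short, when at least 3 of 9 lymphatic genes were detected in it (Reln, Mmrn1, Flt4, Prox1, Tbx1, Sema3a, Tc2n, Sh3gl3 and Ccl21a) and when it held at most 1 unique molecular identifier (UMI, a count of 1 captured transcript) over 6 genes of other cell types. Those 6 were Pdgfra (fibroblasts), Csf1r (macrophages), Muc16 (mesothelium), Abcc9 (pericytes), Npr3 (endocardium) and Btnl9 (capillary endothelium). The rule found 1488 lymphatic cells among 38646 barcodes in 3 libraries.

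Lymphatic capillaries take up interstitial fluid, macromolecules and immune cells and return them to the blood, and collecting vessels with intraluminal valves keep the flow in 1 direction. Prox1, a homeobox transcription factor, sets and keeps lymphatic identity, and the growth factor VEGF-C acts through the receptor VEGFR-3, the product of Flt4, with neuropilin 2 as a co-receptor. In the heart, lymphatic vessels run beneath the epicardium and within the myocardium, and they are known for draining fluid and inflammatory cells after injury.

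All mice were males of the strain C57/B6J. The 3 groups were wild type (WT), the point mutation model Myh6-R404Q and the point mutation model Prkag2-p.R299Q, with 1 library each. Myh6 encodes the alpha cardiac myosin heavy chain and Prkag2 the gamma-2 subunit of AMP-activated protein kinase, and mutations in both genes are linked to hypertrophic cardiomyopathy or its mimics. Collagenase was used to dissociate the hearts, the suspension was strained at 70 µm, and total cells entered a 10x Genomics 3-prime workflow, so the lymphatic cells were not sorted before capture. The labels used here give neither the age of the mice nor the number of hearts behind each library. With 1 library per genotype there is no spread between mice, and no test was possible. Every interval below is a 95% interval that covers counting error only, and a difference between genotypes cannot be told apart from a difference between libraries.

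The lymphatic cells held 1634687 UMIs in WT, 738553 for Myh6-R404Q and 583848 for Prkag2-p.R299Q, from library totals of 41047991, 38251499 and 31385005. Their median depth was 1514, 1806.5 and 1890 UMIs per cell, where all barcodes of the same libraries had medians of 1559, 2043 and 2537. They had a median of 1082, 1238 and 1270.5 genes and a median mitochondrial share of 2.55%, 2.02% and 2.07%. The matrix deposited for Myh6-R404Q holds the other 2 libraries as well, so only its barcodes of suffix 3, which stand in no other matrix, were used. The libraries shared 51 (WT and Myh6-R404Q), 28 (WT and Prkag2-p.R299Q) and 34 (Myh6-R404Q and Prkag2-p.R299Q) barcode sequences.

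Lymphatic genes that the rule did not use were high in these cells too, which fits the label. All 10 of a list of further lymphatic genes (Lyve1, Pdpn, Nrp2, Sox18, Nr2f2, Maf, Pard6g, Fgl2, Thy1 and Stab1) were higher in the lymphatic cells than in all other barcodes of each library. Their summed level was 3668, 4303 and 3994 CPM (counts per 1000000 of the summed UMIs of the cells) in WT, Myh6-R404Q and Prkag2-p.R299Q lymphatic cells, against 574, 635 and 589 CPM in the other barcodes. It was 704, 961 and 996 CPM in capillary endothelial barcodes and 608, 804 and 774 CPM in endocardial barcodes. Against capillary barcodes, 10, 10 and 9 of the genes were higher in the lymphatic cells. Lyve1, the hyaluronan receptor used to mark lymphatic capillaries, stood at 286, 324 and 319 CPM in lymphatic cells and at 27.7, 14.3 and 30.8 CPM in the other barcodes. A UMI of Lyve1 was seen in 34.2%, 33.8% and 41.2% of the lymphatic cells and in 3.52%, 2.22% and 3.20% of capillary endothelial barcodes, whose median depths were 1361, 1555 and 1852 UMIs. As the cells were chosen from the same counts, these values describe them and were not tested.

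The summed level of general endothelial genes was lower than in capillary and endocardial barcodes. The 9 listed genes (Pecam1, Cdh5, Tie1, Egfl7, Tek, Ptprb, Emcn, Esam and Erg) summed to 2451, 2827 and 2525 CPM in the lymphatic cells, to 3525, 4460 and 4367 CPM in capillary endothelial barcodes and to 3733, 3840 and 4192 CPM in endocardial barcodes. None of the 9 was higher in lymphatic than in capillary barcodes in any of the 3 libraries, while in WT 4 were higher than in endocardial barcodes, against 3 for Myh6-R404Q and 0 for Prkag2-p.R299Q. Pecam1, an adhesion molecule of all endothelium, stood at 427, 417 and 483 CPM in the lymphatic cells. Capillary barcodes were chosen by 3 or more of 9 capillary genes and endocardial barcodes by 3 or more of 7 endocardial genes, with at most 1 lymphatic gene detected, which gave 2214, 1444 and 813 capillary and 618, 818 and 251 endocardial barcodes.

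RNA of other cell types was found in the lymphatic cells in all 3 libraries. Cardiomyocyte transcripts were the most abundant of it: 13 listed genes summed to 20390, 18861 and 14511 CPM in the lymphatic cells and to 35875, 30091 and 34011 CPM in the other barcodes, and none of the 13 was at 0. Macrophage genes (7) summed to 738, 368 and 457 CPM, fibroblast genes (7) to 874, 955 and 862 CPM, and Schwann genes (4) to 37.9, 13.5 and 20.6 CPM. The macrophage gene Csf1r stood at 6.73, 6.77 and 10.3 CPM, but the rule allowed at most 1 UMI over the excluded genes, of which it is one. Its low level was therefore set by the choice of cells. The macrophage and fibroblast sums include the excluded genes Csf1r and Pdgfra. Scrublet called 175 WT (19.5%), 44 Myh6-R404Q (12.5%) and 20 Prkag2-p.R299Q (8.33%) lymphatic cells doublets. Of all barcodes in the same libraries it called 17.6%, 16.6% and 14.0%. The lymphatic cells called doublets were kept because the rule alone defined the set. Free RNA was not removed, and its part in the results was not tested.

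At the threshold of the rule, 202 WT, 56 Myh6-R404Q and 36 Prkag2-p.R299Q lymphatic cells had exactly 3 lymphatic genes detected, and 435, 150 and 101 barcodes with exactly 2 stood just outside. Lyve1 stood at 186, 95.1 and 19.6 CPM just inside and at 39.0, 10.4 and 22.7 CPM just outside. The Prkag2-p.R299Q value inside rests on 2 UMIs. Barcodes with at least 3 lymphatic genes but more than 1 UMI of the excluded genes numbered 231, 181 and 137, with median depths of 3994, 4656 and 6002 UMIs. The median lymphatic cell had 5 of the 9 genes detected in every library, and 4 after each cell was thinned to 1000 UMIs.

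Lymphatic cells made up a larger share of the WT library than of either mutant library. They were 896 of 18033 barcodes in WT (4.97%, exact binomial interval 4.66 to 5.30), 352 of 12662 in Myh6-R404Q (2.78%, 2.50 to 3.08) and 240 of 7951 in Prkag2-p.R299Q (3.02%, 2.65 to 3.42). The share in Myh6-R404Q was 0.560 times that in WT (0.496 to 0.632) and the share in Prkag2-p.R299Q was 0.608 times that in WT (0.528 to 0.699). Between the mutants the ratio was 1.09 (Prkag2-p.R299Q over Myh6-R404Q, 0.924 to 1.28), an interval that spans equality. Both ratios to WT share the WT library.

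Against endothelial barcodes alone, the gap to WT was as large for Myh6-R404Q and smaller for Prkag2-p.R299Q. Among lymphatic, capillary and endocardial barcodes together, lymphatic cells were 24.0% for WT, 13.5% for Myh6-R404Q and 18.4% for Prkag2-p.R299Q. The ratio to WT was then 0.560 for Myh6-R404Q (0.501 to 0.627) and 0.766 for Prkag2-p.R299Q (0.674 to 0.870). Capillary barcodes had shares of 12.3%, 11.4% and 10.2% of all barcodes, and endocardial barcodes 3.43%, 6.46% and 3.16%. WT had the highest lymphatic share under every setting of the rule that was run: 3.85%, 2.34% and 2.57% with 4 or more genes, 7.38%, 3.96% and 4.29% with 2 or more, 4.61%, 2.93% and 3.00% after thinning to 1000 UMIs, and 6.25%, 4.21% and 4.74% with no limit on the excluded genes. With 1 library each, a difference in the tissue and a difference in what was captured cannot be told apart.

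**Figure D1:**
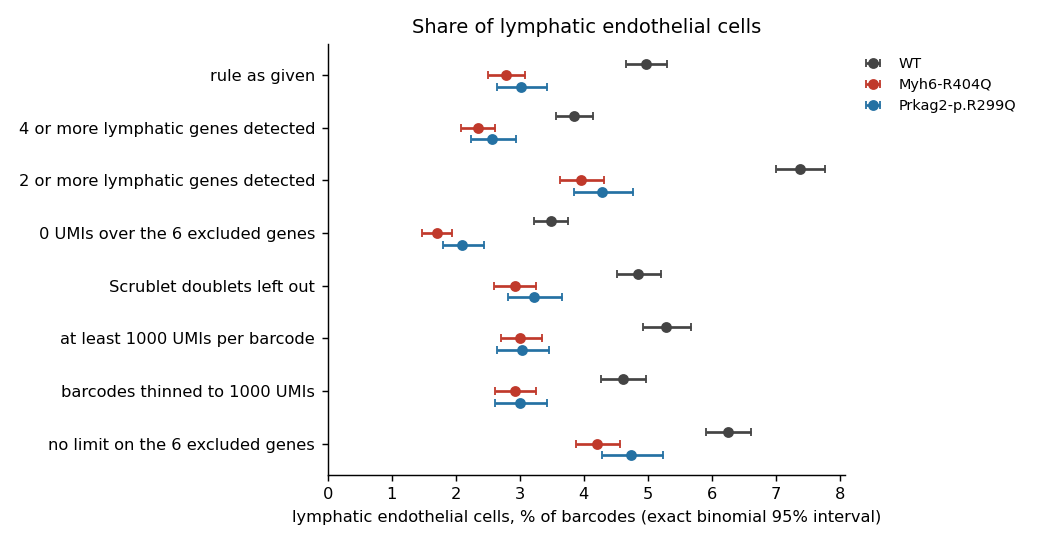
Share of barcodes that were lymphatic endothelial cells (x axis, percent, from 0) in each library, under the rule as given and under 7 other settings of it (y axis), with exact binomial 95% intervals for counting error. WT stands to the right of both mutants in every row, at 4.97% against 2.78% and 3.02% under the rule as given.

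The genes that carry the lymphatic programme are shown here by the start of 3 of them, because Flt4 encodes the receptor that defines the cell type and Ccl21a and Sema3a differed most between WT and both mutants among the 9 rule genes. The sequences are the 250 bases before the RefSeq transcript start on GRCm38.p6, 5′ to 3′ on the gene's strand, with matches to CAGGAA or CCGGAA on either strand in capitals. These are short forms of the site bound by ETS factors, a transcription factor family with many members in endothelium.
Flt4 (chr11:49609429-49609678, plus strand): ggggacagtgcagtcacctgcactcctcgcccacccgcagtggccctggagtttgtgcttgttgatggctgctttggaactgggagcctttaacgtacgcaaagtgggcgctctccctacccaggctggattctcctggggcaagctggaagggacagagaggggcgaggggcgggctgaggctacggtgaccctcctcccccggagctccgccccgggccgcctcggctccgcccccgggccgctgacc
Ccl21a (chr4:42773992-42774241, minus strand): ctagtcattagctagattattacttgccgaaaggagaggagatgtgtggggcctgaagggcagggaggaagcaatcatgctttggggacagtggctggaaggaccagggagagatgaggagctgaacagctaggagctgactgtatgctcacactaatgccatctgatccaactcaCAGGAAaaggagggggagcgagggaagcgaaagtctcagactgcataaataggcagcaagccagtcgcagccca
Sema3a (chr5:13396534-13396783, plus strand): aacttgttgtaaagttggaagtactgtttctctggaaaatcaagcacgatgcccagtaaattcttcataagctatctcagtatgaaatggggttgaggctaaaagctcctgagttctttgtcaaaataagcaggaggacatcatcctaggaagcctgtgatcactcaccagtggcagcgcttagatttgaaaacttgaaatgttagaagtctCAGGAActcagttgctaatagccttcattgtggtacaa
CAGGAA stood 74 bases before the Ccl21a start and 38 bases before the Sema3a start, and neither motif stood in the Flt4 window. The RefSeq start of Sema3a lies inside the gene as GENCODE annotates it (chromosome 5, 13125414 to 13602565), so its window is upstream of 1 transcript and not of the whole gene. CAGGAA was in the windows of 3 of the 9 rule genes (33.3%), of 9 of the 20 genes with a window among the 25 further genes highest in lymphatic cells (45.0%) and of 28.3% of 27025 genes. CCGGAA was in those of 1 of 9 (11.1%), 2 of 20 (10.0%) and 13.6% of all genes. A match is a run of letters and not a measured binding site.

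Reln, a secreted glycoprotein, and Mmrn1, the matrix protein multimerin 1, had the highest counts of the rule genes. Reln stood at 1891 CPM in WT, 1878 CPM in Myh6-R404Q and 2316 CPM in Prkag2-p.R299Q lymphatic cells, and 83.3%, 87.8% and 92.5% of the cells held a UMI of it, against 1.36%, 0.900% and 1.11% of capillary barcodes. Capillary and endocardial barcodes were chosen to have few or no rule genes detected, and lymphatic cells to have several. The contrast in rule genes between these groups was therefore set in part by that choice. Of all Reln UMIs in the libraries, 69.7%, 62.4% and 63.7% fell in the lymphatic cells. Mmrn1 stood at 1291, 1537 and 1728 CPM, lowest in WT. Flt4, the VEGF-C receptor, stood at 594, 684 and 668 CPM, and Tbx1, a T-box transcription factor that acts in lymphatic development, at 137, 164 and 130 CPM. Tc2n stood at 355, 398 and 428 CPM and Sh3gl3 at 190, 169 and 166 CPM.

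Sema3a was lower in both mutants than in WT. This gene (chromosome 5, 13125414 to 13602565, plus strand) encodes a secreted guidance cue that repels growing axons and acts on lymphatic valves through neuropilin 1. It stood at 1012 CPM in WT, 528 CPM in Myh6-R404Q and 543 CPM in Prkag2-p.R299Q lymphatic cells, so that WT stood apart, and the ratio between the mutants was 1.03 (0.884 to 1.2). The ratio to WT was 0.522 for Myh6-R404Q (0.466 to 0.583) and 0.537 for Prkag2-p.R299Q (0.474 to 0.605). A UMI of Sema3a was seen in 58.7%, 51.4% and 51.2% of the lymphatic cells, and in 47.9%, 35.1% and 34% after thinning to 1000 UMIs, which left out 167, 19 and 25 shallower cells. Capillary barcodes held one in 1.40%, 1.45% and 2.34%, and endocardial barcodes in 6.80%, 11.7% and 7.17%. Both of these groups were chosen to have few or no rule genes detected, so their low shares were set in part by that choice. Because Sema3a is itself in the rule, the lymphatic cells were also chosen by 3 or more of the other 8 genes. The ratios to WT were then 0.519 and 0.553.

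Ccl21a, a chemokine that draws dendritic cells and lymphocytes into lymphatic vessels, was higher in both mutants. It stood at 615 CPM in WT, 972 CPM in Myh6-R404Q and 867 CPM in Prkag2-p.R299Q, lowest in WT. The ratios to WT were 1.58 (1.43 to 1.74) and 1.41 (1.26 to 1.57), and 1.64 and 1.48 in cells chosen without Ccl21a. The share of cells with a UMI was 52.9%, 58.2% and 57.1%, against 7.99%, 3.74% and 2.21% of capillary barcodes, where WT was highest and not lowest. Capillary barcodes were chosen to have few or no rule genes detected, so their low Ccl21a shares were set in part by that choice. The mouse genome holds near-identical Ccl21 copies. All 1005, 718 and 506 UMIs in the lymphatic cells were on 1 Ccl21a entry and the entries named Ccl21b and Ccl21c had 0, so the copy that was transcribed is uncertain.

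Prox1 (chromosome 1, 190118035 to 190170714, minus strand) stood at 745 CPM in WT, 1101 CPM in Myh6-R404Q and 805 CPM in Prkag2-p.R299Q. It was highest in Myh6-R404Q, at 1.48 times WT (1.35 to 1.62), and 1.57 times in cells chosen without it. A UMI of Prox1 was seen in 64.7%, 75.9% and 75.0% of lymphatic cells and in 6.10%, 4.64% and 5.78% of capillary barcodes. The low capillary shares were set in part by the choice of barcodes with few or no rule genes detected. Of all barcodes outside the lymphatic cells, 11.4%, 12.3% and 14.5% held a UMI of Prox1. The ratio of Prkag2-p.R299Q to WT was 1.08 (0.969 to 1.2), an interval that spans equality. Over the 9 rule genes the median log2 ratio to WT was 0.20 for Myh6-R404Q and 0.17 for Prkag2-p.R299Q. In all other barcodes the medians of these genes were -0.33 and -0.51. Over all genes measured in the lymphatic cells, with rule genes left out, the medians were 0.01 and -0.02. As the rule genes chose the cells, their medians depend on that choice and were not tested.

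**Figure D2:**
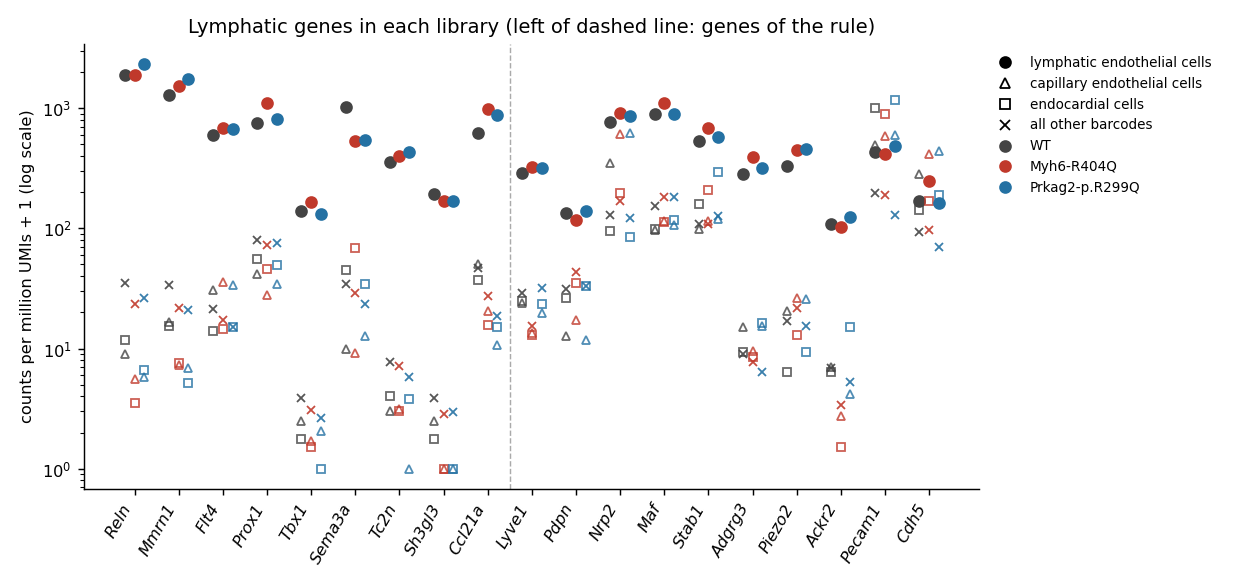
Level of 19 genes (x axis) in lymphatic endothelial cells (filled circles), capillary and endocardial cells and all other barcodes (open symbols and crosses) of each library (colours), as CPM + 1 on a log y axis. The filled circles stand above the other symbols for every lymphatic gene, while Pecam1 and Cdh5, of all endothelium, are higher in capillary cells. For genes of the rule, the higher position of the filled circles was set in part by how the cell groups were chosen. Any gene taken from those highest over other barcodes was itself chosen by this contrast.

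Outside the rule, the lymphatic identity list showed small differences between libraries. Nrp2, the VEGF-C co-receptor, stood at 761, 909 and 865 CPM in WT, Myh6-R404Q and Prkag2-p.R299Q lymphatic cells. Pdpn, which encodes podoplanin, stood at 133, 116 and 137 CPM, and the transcription factors Maf and Nr2f2 at 885, 1097 and 899 CPM and at 357, 334 and 435 CPM. Stab1, a scavenger and adhesion receptor, stood at 529, 678 and 569 CPM. Thy1, a surface glycoprotein found on lymphatic endothelium, was the member past 1.5-fold: it stood at 50.8 CPM in WT and at 82.6 and 90.8 CPM in the mutants, 1.63 times (1.15 to 2.29) and 1.79 times (1.24 to 2.55) WT. It was the single member of 9 measured that was at least 1.5-fold higher in each mutant, and none was as much lower. Of all genes measured, 4.60% were at least 1.5-fold higher and 5.24% lower in Myh6-R404Q than in WT, and 3.63% higher and 6.10% lower in Prkag2-p.R299Q than in WT.

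The 25 further genes that were highest over the other barcodes in all 3 libraries included several of known lymphatic expression. Adgrg3, an adhesion G protein-coupled receptor, led with 284, 387 and 317 CPM in the lymphatic cells and 7.92, 6.72 and 5.36 CPM in the others. Pard6g, of the cell polarity complex, stood at 396, 544 and 444 CPM against 16.8, 16.6 and 15.6 CPM. Piezo2, a mechanically gated ion channel best known from touch neurons, stood at 329, 446 and 454 CPM against 16.0, 20.9 and 14.4 CPM. The chemokine-scavenging receptor Ackr2, which removes inflammatory chemokines at lymphatic endothelium, stood at 108, 102 and 123 CPM against 5.91, 2.37 and 4.22 CPM. The neural adhesion gene Nrcam (124, 96.1 and 154 CPM), the oxidase gene Duox2 (80.1, 73.1 and 71.9 CPM) and the Notch pathway gene Dtx1 (94.2, 116 and 122 CPM) were among the first 6. Hoxd4 stood at 53.8, 50.1 and 65.1 CPM and the antisense gene Hoxd3os1 at 62.4, 74.5 and 65.1 CPM. Rspo3, a secreted enhancer of Wnt signalling, stood at 83.8, 78.5 and 75.4 CPM. These genes were chosen by the same contrast as they describe, so no test applies.

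Listed valve genes differed widely in level. Foxc2, a transcription factor needed for lymphatic valves, stood at 7.95, 21.7 and 18.8 CPM, and the connexin gene Gja4 at 9.79, 24.4 and 20.6 CPM, both lowest in WT and both below the 50 CPM required for the comparison of genes. Nfatc1, a transcription factor of valve cells, stood at 163, 229 and 178 CPM, and Gata2 at 33.0, 52.8 and 32.5 CPM. Itga9, the integrin that binds fibronectin in valve leaflets, stood at 591, 653 and 786 CPM, and Foxp2 at 790, 700 and 802 CPM. Of the 7 valve genes measured in Myh6-R404Q against WT, 1 was at least 1.5-fold higher, where 4.60% of all genes were, and none as much lower. The median log2 ratio was 0.34, against 0.01 over all genes. That median was 0.0062 with 2 or more genes required and -0.25 with no limit on the excluded genes. In Prkag2-p.R299Q the median over 5 measured genes was 0.13.

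The comparison of genes used the summed UMIs of the lymphatic cells, kept genes that reached 50 CPM in one of the libraries and counted those at least 2-fold apart. Of 4412 genes in Myh6-R404Q against WT, 21 were higher (0.476%) and 72 lower (1.63%). Of 4325 genes in Prkag2-p.R299Q against WT, 23 were higher (0.532%) and 66 lower (1.53%). Of 4385 genes in Prkag2-p.R299Q against Myh6-R404Q, 32 were higher (0.730%) and 48 lower (1.09%). Genes named by size also had an interval wholly beyond 1.5-fold and, in the library where they were higher, at least 0.5 times the level of the other barcodes. Past both folds were 12 higher (0.272%) and 44 lower genes (0.997%) in Myh6-R404Q against WT, and 10 higher (0.231%) and 33 lower genes (0.763%) in Prkag2-p.R299Q against WT. The last condition was met by all of these higher genes and by 28 and 22 of the lower ones. Both comparisons with WT share the same WT cells, so a gene named in both is described with its 3 values side by side.

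Cmah was lower in both mutants than in WT. It encodes the hydroxylase that makes the sialic acid Neu5Gc from Neu5Ac, and it lies on chromosome 13 (24327404 to 24477377, plus strand). It stood at 522 CPM in WT lymphatic cells and at 77.2 CPM in Myh6-R404Q and 122 CPM in Prkag2-p.R299Q, so WT was far above both mutants. The ratio to WT was 0.148 for Myh6-R404Q (0.111 to 0.194) and 0.233 for Prkag2-p.R299Q (0.180 to 0.297). A UMI was seen in 234 of 896 WT cells (26.1%), 40 of 352 Myh6-R404Q cells (11.4%) and 35 of 240 Prkag2-p.R299Q cells (14.6%), and in 20.9%, 6.91% and 8.37% after thinning. Capillary barcodes held one in 5.10%, 3.60% and 4.80%, with levels of 41.7, 29.9 and 32.5 CPM. The log2 ratios in capillary, endocardial and all other barcodes were -0.47, -0.23 and 0.04 for Myh6-R404Q and -0.35, -0.32 and -0.13 for Prkag2-p.R299Q, against -2.74 and -2.09 in the lymphatic cells. The highest single cell gave 5.74%, 8.77% and 29.6% of the UMIs. WT lymphatic cells without a macrophage or Schwann UMI stood at 598 CPM and those not called doublets at 603 CPM. The log2 ratio ranged over the settings from -3.0 to -0.65 in Myh6-R404Q, the last from the matrix that pools all 3 libraries, and from -2.74 to -1.86 in Prkag2-p.R299Q.

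Serpina3n, a secreted serine protease inhibitor of the acute-phase response, was also lower in both mutants. It stood at 89.9 CPM in WT, 5.42 CPM in Myh6-R404Q (4 UMIs) and 17.1 CPM in Prkag2-p.R299Q (10 UMIs). The ratios to WT were 0.0602 (0.0162 to 0.158) and 0.190 (0.0895 to 0.360). Other cells had log2 ratios of -2.33 in capillary and -2.49 in all other barcodes for Myh6-R404Q and of -2.08 and -1.92 for Prkag2-p.R299Q, so the difference was not limited to lymphatic cells. Nkain2 stood at 164, 17.6 and 34.3 CPM and Cadm2, a neural adhesion gene, at 60, 17.6 and 12 CPM. In WT, 1 cell gave 58.2% of the Cadm2 UMIs, and Schwann genes were also higher in the WT lymphatic cells (37.9, 13.5 and 20.6 CPM). F13a1, a coagulation factor chain made by resident macrophages, stood at 406, 78.5 and 187 CPM and is itself in the macrophage list. In cells without a macrophage or Schwann UMI, Cadm2 stood at 15.3 CPM in WT, 9.55 CPM in Myh6-R404Q and 9.82 CPM in Prkag2-p.R299Q, on 15, 4 and 3 UMIs, while Nkain2 stood at 149, 26.3 and 26.2 CPM. These cells hold no F13a1 by construction.

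Further genes lower in Myh6-R404Q than in WT were Vcan, which encodes the proteoglycan versican (58.7 and 13.5 CPM), Acta1, the skeletal muscle actin gene (85.0 and 21.7 CPM), the dynein gene Dnah6 (82.6 and 24.4 CPM), the ion channel gene Trpm3 (60 and 17.6 CPM) and Tspan7 (89.9 and 28.4 CPM). The log2 ratios of Vcan in lymphatic, capillary, endocardial and all other barcodes were -2.04, -1.10, -1.13 and -0.76. For Acta1 they were -1.92, -1.16, -1.31 and -1.10, and for Dnah6 -1.72, -1.12, -0.65 and -0.14. For Trpm3 they were -1.71, 0.31, 0.44 and -0.024, and for Tspan7 -1.63, -0.022, -0.20 and -0.35. Rarres2, which encodes the chemoattractant chemerin, had the largest ratio of the named genes above WT. It stood at 20.2 CPM in WT, 94.8 CPM in Myh6-R404Q and 44.5 CPM in Prkag2-p.R299Q, at 4.70 times WT in Myh6-R404Q (3.06 to 7.33). Its level in capillary barcodes was 25.2, 90.9 and 35.7 CPM, close to that in the lymphatic cells, and the log2 ratio in all other barcodes was 1.96. Bcl6b, a transcriptional repressor of endothelium, stood at 31.2 CPM in WT, 100.2 CPM in Myh6-R404Q and 48.0 CPM in Prkag2-p.R299Q, with log2 ratios of 1.65 in lymphatic and 0.99 in capillary barcodes of Myh6-R404Q.

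Among the other genes higher in Myh6-R404Q lymphatic cells, Ephb1, an ephrin receptor, stood at 56.3 CPM in WT and 129 CPM in Myh6-R404Q, 2.29 times (1.70 to 3.08). Its log2 ratio was 1.18 in lymphatic, 0.97 in capillary, 1.13 in endocardial and 0.93 in all other barcodes, so the difference was not limited to lymphatic cells. Nid2, a basement membrane linker protein, stood at 35.5 and 78.5 CPM and the growth factor gene Ptn, which encodes pleiotrophin, at 28.8 and 69.1 CPM. In the same order of cells the log2 ratios were 1.12, 0.79, 0.81 and 0.64 for Nid2 and 1.24, 0.77, -0.46 and 0.54 for Ptn. The nuclear pore gene Nup155 stood at 28.8 and 78.5 CPM, Sesn3, a stress-responsive sestrin gene, at 20.8 and 51.5 CPM, and Itih5, of the inter-alpha-trypsin inhibitor family, at 19.0 and 54.2 CPM. Mtss2 (25.7 and 75.8 CPM) and Art1 (41.0 and 92.1 CPM) completed the 10. After thinning, the log2 ratio of Art1 was -0.68, the reverse of the 1.15 from all UMIs. In capillary and endocardial barcodes the Art1 ratio was -0.028 and 0.14.

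**Figure D3:**
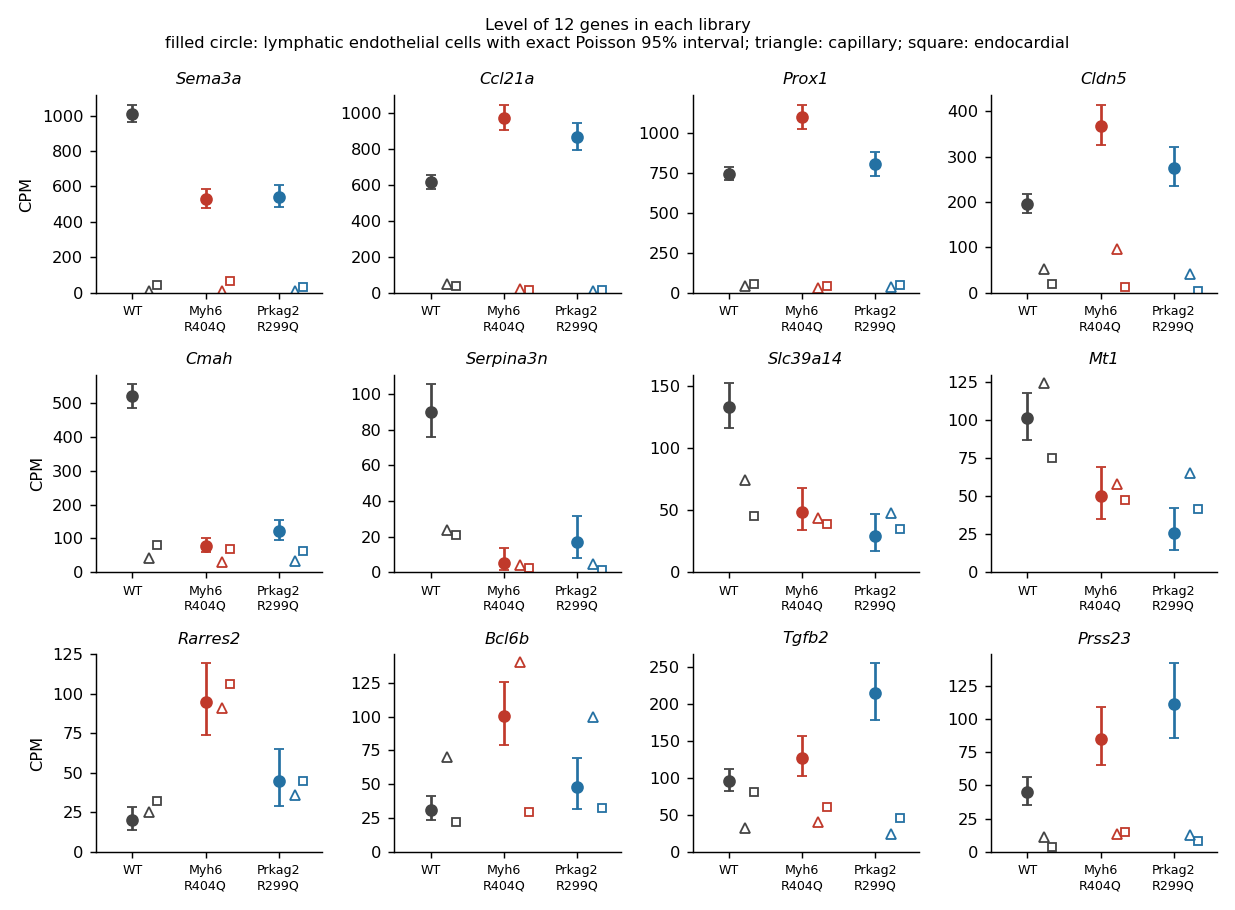
Level (y axis, CPM, from 0) of 12 genes in each library (x axis), in lymphatic endothelial cells with exact Poisson 95% intervals (filled circles), capillary cells (triangles) and endocardial cells (squares). Cmah stands at 522 CPM in WT lymphatic cells and at 77.2 and 122 CPM in the mutants, above their capillary cells, Rarres2 is as high in capillary as in lymphatic cells, and Tgfb2 is highest in Prkag2-p.R299Q lymphatic cells.

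Tgfb2 was higher in Prkag2-p.R299Q lymphatic cells. It encodes the ligand transforming growth factor beta 2 and lies on chromosome 1 (186622792 to 186705989, minus strand). It stood at 96.0 CPM in WT, 127 CPM in Myh6-R404Q and 214 CPM in Prkag2-p.R299Q, where it was 2.23 times WT (1.75 to 2.84). A UMI was seen in 13.2%, 18.8% and 29.2% of the lymphatic cells, in 9.33%, 11.1% and 17.2% after thinning, and in 4.56%, 5.47% and 4.18% of capillary barcodes. The log2 ratio of Prkag2-p.R299Q to WT was 1.15 in lymphatic cells but -0.40 in capillary and -0.79 in endocardial barcodes. Over the settings it ranged from 0.39 to 1.36.

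Prss23, a secreted serine protease gene expressed by endothelium, stood at 44.7, 85.3 and 111 CPM, 2.49 times WT in Prkag2-p.R299Q (1.76 to 3.53). Anxa1, which encodes the anti-inflammatory annexin A1, stood at 30.0 CPM in WT and 73.6 CPM in Prkag2-p.R299Q, and Tnc, the matrix protein tenascin C, at 30.0 and 71.9 CPM. Of the 42 Tnc UMIs in Prkag2-p.R299Q, 31.0% came from 1 cell. The transcription factor gene Tox stood at 65.5 and 144 CPM, Cyp4b1 at 61.2 and 132 CPM and Ggct at 23.2 and 58.2 CPM. Car10 stood at 22 and 70.2 CPM, but 5 cells held all 41 UMIs in Prkag2-p.R299Q, 1 cell gave 73.2% of them, and 0 UMIs were in cells without a macrophage or Schwann UMI. The kinase gene Mylk4 (74.6 and 176 CPM) and the channel gene Ano4 (61.2 and 144 CPM) had log2 ratios of -0.098 and -0.03 when 4 or more lymphatic genes were required, the reverse of 1.23 and 1.22.

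Slc39a14 and Mt1 were among the named genes lower in Prkag2-p.R299Q. Slc39a14, a transporter that takes up zinc, manganese and iron (chromosome 14, 70303469 to 70351425, minus strand), stood at 133 CPM in WT, 48.7 CPM in Myh6-R404Q and 29.1 CPM in Prkag2-p.R299Q. The ratio of Prkag2-p.R299Q to WT was 0.218 (0.125 to 0.358). Mt1, a metallothionein gene that is switched on by metals and glucocorticoids, stood at 102, 50.1 and 25.7 CPM, at 0.253 times WT (0.138 to 0.430). The log2 ratios of Mt1 in capillary and endocardial barcodes were -0.93 and -0.83, against -1.94 in lymphatic cells. The transcription factor gene Fosl2 stood at 64.8 CPM in WT and 22.3 CPM in Prkag2-p.R299Q, Ctps, which encodes CTP synthase, at 67.3 and 20.6 CPM, Ly6c1 at 58.1 and 17.1 CPM, and the motor protein gene Myo5b at 50.8 and 17.1 CPM.

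The mutants also differed from each other. Hoxb3os, an antisense transcript of the Hoxb cluster (chromosome 11, 96343072 to 96354691, minus strand), stood at 31.2 CPM in WT (51 UMIs), 2.71 CPM in Myh6-R404Q (2 UMIs) and 70.2 CPM in Prkag2-p.R299Q (41 UMIs). The ratio between the mutants was 25.9 with a counting interval of 6.74 to 221, and the capillary log2 ratio was 0.02. A UMI was seen in 5.47%, 0.568% and 13.8% of the lymphatic cells and in 2.44%, 3.25% and 4.43% of capillary barcodes. Because strand use in the counting is not given in the sources used here, reads of the Hoxb genes opposite it cannot be told apart from its own. Cacna2d1, a calcium channel subunit gene, stood at 149 CPM in Myh6-R404Q and 414 CPM in Prkag2-p.R299Q, and Ppargc1a, a coactivator of mitochondrial genes, at 102 and 228 CPM. Of the 133 Ppargc1a UMIs in Prkag2-p.R299Q, 30.8% came from 1 cell. Its log2 ratio of 1.16 became -0.33 with 0 UMIs allowed over the excluded genes. Without cells holding a macrophage or Schwann UMI it was -0.082. Other genes higher in Prkag2-p.R299Q were Rnf150 (82.6 and 197 CPM), Tspan7 (28.4 and 85.6 CPM), Eefsec (27.1 and 78.8 CPM) and Acta1 (21.7 and 61.7 CPM). In capillary, endocardial and all other barcodes the log2 ratios were 1.37, 0.90 and 1.09 for Acta1 and 0.33, 0.67 and 0.67 for Cacna2d1. They were 0.46, 0.98 and 0.67 for Ppargc1a and 0.13, -0.31 and 0.27 for Rnf150. For Tspan7 they were 0.076, -0.55 and -0.40 and for Eefsec 0.20, -0.21 and -0.040.

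By the size rule 10 genes were named as lower in Prkag2-p.R299Q than in Myh6-R404Q. In the same comparison 5 of 13 genes of the cardiomyocyte list were at least 1.5-fold lower, where 6.70% of all genes were. The list had a median log2 ratio of -0.35, and its part in the values of single genes was not tested. Acadvl, the very long chain acyl-CoA dehydrogenase gene, stood at 121 CPM in Myh6-R404Q and 48.0 CPM in Prkag2-p.R299Q, Idh2, the mitochondrial isocitrate dehydrogenase gene, at 253 and 103 CPM, and Gapdh, of glycolysis, at 168 and 78.8 CPM. The muscle genes Myl3 and Myom2 stood at 995 and 473 CPM and at 148 and 56.5 CPM. In capillary, endocardial and all other barcodes the log2 ratios were -0.41, -1.18 and -0.54 for Acadvl and -0.76, -1.29 and -0.67 for Idh2. They were -0.37, -0.89 and -0.54 for Gapdh, -0.52, -1.06 and -0.67 for Myl3 and -1.01, -1.11 and -0.83 for Myom2. The remaining genes were Mtss2 (75.8 and 18.8 CPM), Nup155 (78.5 and 22.3 CPM), the nucleoside transporter gene Slc29a1 (59.6 and 18.8 CPM), the autophagy gene Gabarapl1 (54.2 and 17.1 CPM) and the galectin gene Lgals4 (52.8 and 17.1 CPM). In the same order of cells their ratios were -0.15, -2.02 and -0.48 for Mtss2 and -0.051, -0.025 and -0.14 for Nup155. They were 0.12, 0.33 and 0.25 for Slc29a1, -0.39, 0.014 and -0.59 for Gabarapl1 and -0.73, -1.66 and -0.78 for Lgals4.

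Signalling lists of lymphatic biology had medians near that of all genes, with single members apart. Of 9 measured genes of VEGF-C signalling, 1 was at least 1.5-fold higher and 2 lower in Myh6-R404Q than in WT, and none was past either limit in Prkag2-p.R299Q, with median log2 ratios of 0.14 and 0.18. Of all genes measured, 4.60% were as much higher and 5.24% lower in Myh6-R404Q. Nrp1, the semaphorin and VEGF co-receptor, stood at 275, 135 and 200 CPM and Flt1, a VEGF receptor of blood endothelium, at 226, 138 and 154 CPM, both highest in WT. Kdr, the receptor VEGFR-2, stood at 306, 368 and 367 CPM. Vegfc itself stood at 39.8, 12.2 and 37.7 CPM. Pgf, placental growth factor, stood at 29.4, 54.2 and 25.7 CPM, highest in Myh6-R404Q.

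The semaphorin and plexin list had a median log2 ratio of -0.18 in Myh6-R404Q against WT. Of 9 measured genes, none was at least 1.5-fold higher and 2 were as much lower, where 5.24% of all genes were. They were Sema3a and the gene of its receptor, Nrp1 (275, 135 and 200.4 CPM). Sema3a is a gene of the rule that chose the cells, and rule genes were left out of the 5.24%. Sema3d stood at 658, 546 and 641 CPM, Sema6a at 1345, 1150 and 1295 CPM and the receptor gene Plxna4 at 655, 875 and 714 CPM.  Leukocyte trafficking genes had a median log2 ratio of 0.18 for Myh6-R404Q and 0.11 for Prkag2-p.R299Q over 9 measured genes, with 1 past 1.5-fold in each direction in both. The higher gene in Myh6-R404Q was Ccl21a, which is a gene of the rule. Of all genes measured, with rule genes left out, 4.60% were as much higher and 5.24% lower in Myh6-R404Q. The shares were 3.63% and 6.10% in Prkag2-p.R299Q. Il7, a cytokine that lymphatic endothelium supplies to lymphocytes, stood at 155, 192 and 233 CPM, 1.51 times WT in Prkag2-p.R299Q (1.21 to 1.86). The chemokine gene Cxcl12 stood at 61.8, 28.4 and 27.4 CPM, highest in WT, with capillary levels of 252, 215 and 285 CPM. Spns2, the exporter of sphingosine 1-phosphate, stood at 185, 135 and 146 CPM and the receptor gene S1pr1 at 131, 156 and 127 CPM.

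Junction and Notch genes showed opposite single members. Cldn5, the tight junction protein claudin 5 (chromosome 16, 18776847 to 18778262, plus strand), stood at 196 CPM in WT, 368 CPM in Myh6-R404Q and 276 CPM in Prkag2-p.R299Q. It was 1.88 times WT in Myh6-R404Q (1.59 to 2.22) and 1.41 times WT in Prkag2-p.R299Q (1.16 to 1.71), and its capillary levels were 52.2, 96.5 and 41.6 CPM. Cdh5, VE-cadherin, stood at 168, 248 and 161 CPM and Egfl7, a secreted endothelial protein, at 538, 867 and 565 CPM, both highest in Myh6-R404Q. Esam, an adhesion molecule of endothelial tight junctions, stood at 64.8, 35.2 and 42.8 CPM. Over 12 measured junction genes the median log2 ratio was 0.05 for Myh6-R404Q and 0.10 for Prkag2-p.R299Q. Rbpj, the DNA-binding partner of Notch (chromosome 5, 53466152 to 53657362, plus strand), stood at 447, 188 and 272 CPM, at 0.421 times WT in Myh6-R404Q (0.349 to 0.506), and at 544, 348 and 485 CPM in capillary barcodes. The Notch target Hes1 stood at 59.3, 97.5 and 80.5 CPM and the receptor gene Notch1 at 155, 169 and 168 CPM.

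Matrix, BMP and TGF-beta, adrenomedullin and Tie receptor genes had list medians within 1.2-fold of all genes in the comparisons with WT. Timp3, an inhibitor of matrix metalloproteinases, stood at 692, 899 and 995 CPM, lowest in WT, and the protease gene Adamts9 at 191, 138 and 108 CPM, highest in WT. Lama4, a laminin chain of vessel basement membranes, stood at 916, 990 and 1034 CPM. Ramp2, the co-receptor for adrenomedullin, stood at 59.3 CPM in WT and 108 CPM in Myh6-R404Q, 1.83 times (1.34 to 2.48), and its partner Calcrl at 479, 401 and 426 CPM. Tek and Angpt1, a receptor and its ligand, stood at 212, 161 and 173 CPM and at 121, 79.9 and 85.6 CPM. Of the 13 BMP and TGF-beta genes measured in Prkag2-p.R299Q, Tgfb2 was the 1 past 1.5-fold, where 3.63% of all genes were as much higher. Smad1 (444, 467 and 445 CPM) and Bmpr2 (300.4, 288 and 339 CPM) lay close together.

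**Figure D4:**
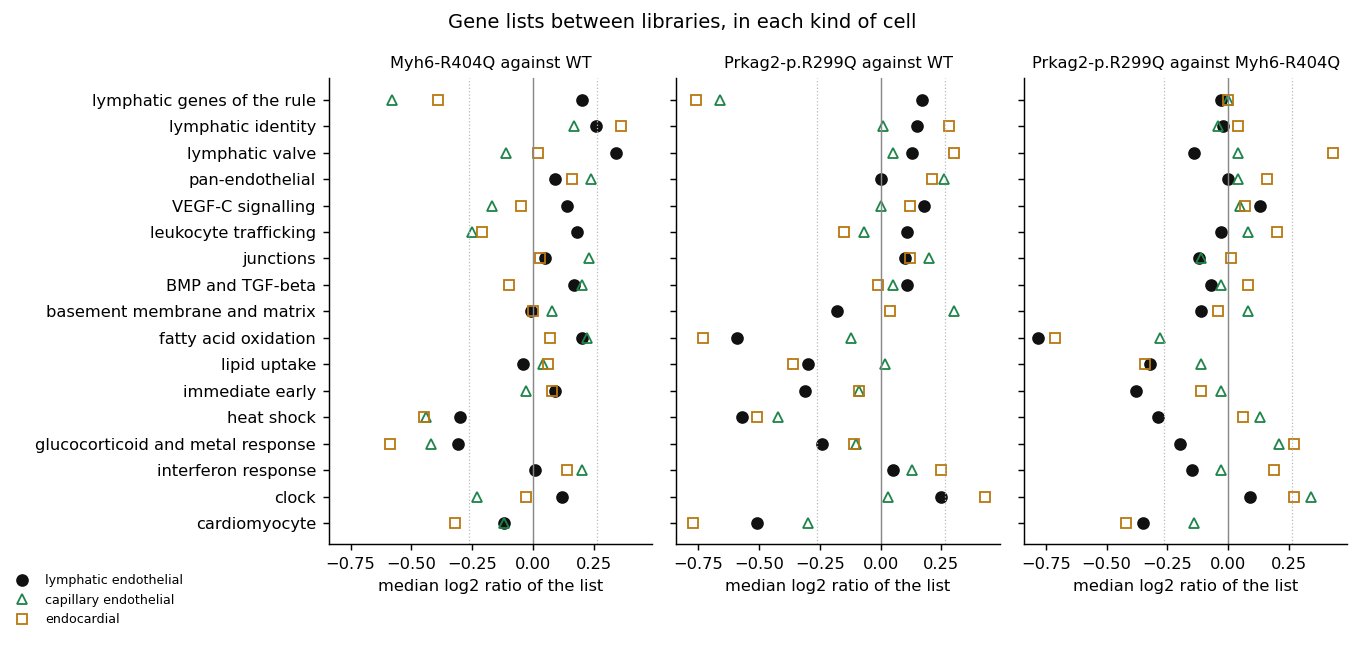
Median log2 ratio of 17 gene lists (x axis) for the 3 comparisons between libraries, in lymphatic (filled circles), capillary (triangles) and endocardial cells (squares), with dotted lines at 1.2-fold. In lymphatic cells the fatty acid oxidation list lies lowest in both comparisons of Prkag2-p.R299Q, at -0.59 and -0.78, and the endocardial values are near them.

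Fatty acid oxidation genes were lower in Prkag2-p.R299Q lymphatic cells than in the other 2 libraries. Of 9 measured genes, 5 were at least 1.5-fold lower than in WT and none higher, where 6.10% of all genes were lower. All 9 had a ratio below 1, and the median log2 ratio was -0.59 against -0.02 over all genes. Against Myh6-R404Q, 6 of 9 were at least 1.5-fold lower, where 6.70% of all genes were, and the median was -0.78. Acadvl stood at 96.0 CPM in WT, 121 CPM in Myh6-R404Q and 48.0 CPM in Prkag2-p.R299Q, 0.499 times WT (0.321 to 0.750). Hadha, a subunit of the mitochondrial trifunctional protein, stood at 188, 222 and 125 CPM, Etfb, which passes electrons from the dehydrogenases, at 118, 129 and 63.4 CPM, and the thiolase gene Acaa2 at 81.4, 100.2 and 49.7 CPM. Prkag2-p.R299Q was lowest for each of these 4. In Myh6-R404Q against WT the list median was 0.20 and no gene was past 1.5-fold.

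Heart muscle RNA differed between the same libraries, and its part in the difference was not tested. The cardiomyocyte list was lowest in Prkag2-p.R299Q lymphatic cells, with a summed level of 20390, 18861 and 14511 CPM and none of its 13 genes at 0. Its median log2 ratio was -0.51 against WT, with 4 of 13 at least 1.5-fold lower, and -0.35 against Myh6-R404Q, with 5 of 13 lower. Of all genes measured, 6.10% and 6.70% were as much lower in these comparisons. Myh6, the alpha myosin gene itself, stood at 4011, 4196 and 2698 CPM, and Mb, myoglobin, at 897, 739 and 438 CPM. The median log2 ratio of fatty acid oxidation genes in Prkag2-p.R299Q against WT was -0.59 in lymphatic, -0.12 in capillary, -0.73 in endocardial and -0.18 in all other barcodes, and that of cardiomyocyte genes -0.51, -0.30, -0.77 and -0.10. With no limit on the excluded genes the medians in the lymphatic cells were -0.20 and 0.083, and with 2 or more lymphatic genes required the cardiomyocyte median was -0.062.

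Genes of lipid uptake were partly in the same direction. Lpl, lipoprotein lipase, stood at 641, 515 and 289 CPM, at 0.452 times WT in Prkag2-p.R299Q (0.382 to 0.532). The fatty acid transporter gene Cd36 stood at 533, 417 and 325 CPM and Fabp4, a fatty acid binding protein of endothelium, at 542, 416 and 363 CPM. All 3 were highest in WT and lowest in Prkag2-p.R299Q. Of 6 measured genes, 2 were at least 1.5-fold lower and none higher in Prkag2-p.R299Q than in WT, where 6.10% of all genes were lower. The median log2 ratio was -0.30, and -0.021 once genes from 10 CPM were counted. Over the same 6 genes the median was 0.02 in capillary, -0.36 in endocardial and -0.55 in all other barcodes. Pparg, a nuclear receptor that controls several of these genes, stood at 242, 236 and 238 CPM.

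**Figure D5:**
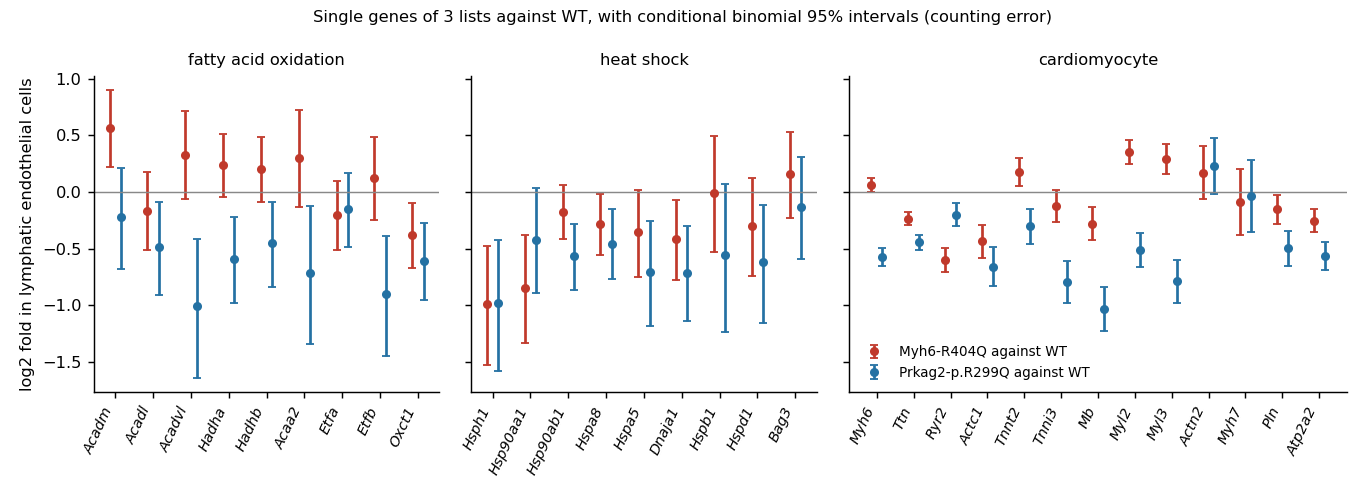
Log2 fold against WT (y axis) of single genes of 3 lists (x axis) in lymphatic endothelial cells of Myh6-R404Q and Prkag2-p.R299Q, with conditional binomial 95% intervals for counting error. All 9 fatty acid oxidation genes of Prkag2-p.R299Q lie below 0, Hsph1 lies near -0.97 in both mutants, and most cardiomyocyte genes lie below 0 in Prkag2-p.R299Q.

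The heat shock list had medians below those of all genes in both mutants against WT. Of 9 measured genes, 4 were at least 1.5-fold lower in Prkag2-p.R299Q than in WT, 2 in Myh6-R404Q and none higher in either. Of all genes measured, 6.10% and 5.24% were as much lower. The median log2 ratios were -0.57 and -0.30, and the latter ranged over the settings from -0.41 to -0.12, in part within 1.2-fold of all genes. Hsph1, a member of the Hsp110 chaperone family, stood at 105, 52.8 and 53.1 CPM, and the inducible HSP90 gene Hsp90aa1 at 117, 65 and 87.4 CPM. Dnaja1, a co-chaperone, stood at 168, 126 and 103 CPM and Hspa5, the chaperone of the endoplasmic reticulum, at 137, 107 and 83.9 CPM, both lowest in Prkag2-p.R299Q. The medians in capillary, endocardial and all other barcodes were at -0.44, -0.45 and -0.37 for Myh6-R404Q and at -0.42, -0.51 and -0.47 for Prkag2-p.R299Q. Immediate early genes had a median of -0.31 in Prkag2-p.R299Q against WT over 7 genes. Of them, 2 were at least 1.5-fold lower, where 6.10% of all genes were. That median was within 1.2-fold of all genes under several settings, at 0.005 with 0 UMIs allowed over the excluded genes, -0.075 without Scrublet doublets and -0.15 at a minimum of 100 CPM. Junb stood at 62.4, 29.8 and 25.7 CPM and Dusp1 at 106, 97.5 and 63.4 CPM, whereas Jun stood at 55.7, 69.1 and 75.4 CPM.

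Glucocorticoid and metal response genes had a median log2 ratio of -0.31 for Myh6-R404Q and -0.24 for Prkag2-p.R299Q against WT. The former ranged over the settings from -0.60 to -0.12, in part within 1.2-fold of all genes, and the latter was within it. In capillary, endocardial and all other barcodes the medians were -0.42, -0.59 and -0.30 for Myh6-R404Q and -0.10, -0.11 and 0.13 for Prkag2-p.R299Q. Fkbp5, a chaperone induced by glucocorticoids, stood at 462, 291 and 379 CPM, and Zbtb16, another glucocorticoid target, at 477, 374 and 516 CPM. Txnip, an inhibitor of thioredoxin and of glucose uptake, stood at 195, 338 and 277 CPM, 1.73 times WT in Myh6-R404Q (1.46 to 2.05), with capillary levels of 199, 304 and 276 CPM. Clock genes had a median of 0.25 in Prkag2-p.R299Q against WT over 5 measured genes. Of them, 2 were at least 1.5-fold higher, where 3.63% of all genes were. The median was 0.0042 at a minimum of 10 CPM, 0.0047 at 100 CPM and 0.12 with 2 or more lymphatic genes required, all within 1.2-fold of all genes. Dbp, a clock output gene, stood at 36.7, 39.3 and 68.5 CPM and Per3 at 45.9, 51.5 and 71.9 CPM. The same list had medians of 0.03 in capillary, 0.43 in endocardial and 0.38 in all other barcodes. Interferon response and MHC class I genes had medians of 0.01 and 0.12 in Myh6-R404Q and 0.05 and -0.15 in Prkag2-p.R299Q, and no MHC class II gene reached 50 CPM. The time of day at which hearts were taken is not given in the sources used here.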

How the data were processed

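The libraries were single-cell RNA-seq of total heart cells, 1 per genotype, taken as whole libraries of GEO's labels. As deposited, each matrix gives counts of UMIs for 32285 gene rows (32245 symbols) by barcode, after cell calling. Per the submitters' processing notes the tool was Cell Ranger 7.0.1 and the build mm10. Whether intronic or antisense reads were counted is not given in the sources used here. In the Myh6-R404Q matrix, suffix 1 marks barcodes with the values of the Prkag2-p.R299Q matrix and suffix 2 those of the WT matrix, so suffix 3 was taken as the Myh6-R404Q library by elimination.

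UMIs of the lymphatic cells were summed per library and given as CPM. Ratios in log2 used a pseudocount of 1 CPM, folds an exact conditional binomial interval, levels an exact Poisson interval and shares an exact binomial (Clopper-Pearson) interval, all at 95% and all for counting error only, while ratios of shares had a log-normal interval. Genes needed 50 CPM in either library, and rule genes stayed out of the counts past 2-fold. A list median over at least 3 such genes was called higher or lower from 1.2-fold off the median of all genes, and 37 lists were read. Named by size were up to 10 genes per direction past 2-fold, with the interval beyond 1.5-fold and at least 0.5 times the level of the other barcodes where the gene was higher. Mitochondrial, ribosomal protein, hemoglobin, immunoglobulin, predicted, X-inactivation and Y genes were left out. The 25 genes highest over other barcodes in every library, the rule genes and the listed genes were named too. No test was run, as each genotype had 1 library. The members and the lists were chosen with earlier results of these data known. Alternatives changed the rule, the doublets, the depth, the scaling, the pseudocount and the minimum. Doublets were called with Scrublet in scanpy 1.11.5 at 0.8% per 1000 barcodes. The size rule was checked on Poisson counts drawn from the summed WT profile. Of genes altered 2-fold up or down, 24.0% to 54.0% passed it, of genes altered 4-fold 92.0% to 100%. Of unaltered genes, at most 0.0247% passed. The simulated counts had no spread between cells, so they do not give the rate of false calls in these data. Gene coordinates are GENCODE vM21 on mm10, found for 405 symbols, and sequences are RefSeq on GRCm38.p6. Software was Python 3.11.15, numpy 2.4.6, scipy 1.17.1, pandas 2.3.3 and matplotlib 3.10.9.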

Additional observations from a re-analysis of the deposited data

Results flagged for a closer look

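In 3 genes the log2 ratio between libraries in lymphatic cells had the opposite sign to that in both capillary and endocardial barcodes of the same libraries, by at least 0.3 in each. The difference between the cell groups was not tested, and each value rests on 1 library per genotype. Tgfb2, a growth factor gene, had a log2 ratio of Prkag2-p.R299Q to WT of 1.15 in lymphatic cells, -0.40 in capillary and -0.79 in endocardial barcodes. Ano4, a gene of the anoctamin family, had 1.22 in lymphatic cells, -1.04 in capillary and -1.11 in endocardial barcodes for the same libraries. The Ano4 value in lymphatic cells was -0.03 with 4 or more lymphatic genes required and -0.0066 after thinning. Trpm3, a cation channel gene, had a log2 ratio of Myh6-R404Q to WT of -1.71 in lymphatic cells, 0.31 in capillary and 0.44 in endocardial barcodes. It rested on 98 UMIs in 53 WT cells and 13 UMIs in 7 Myh6-R404Q cells, with 38.5% of the latter from 1 cell.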

How the results depend on the processing

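No paired analysis was possible because each genotype had 1 library, and no replicate could be left out for the same reason. The ratio of the lymphatic share to that of WT ranged over the alternatives from 0.488 to 0.775 in Myh6-R404Q and from 0.573 to 0.759 in Prkag2-p.R299Q. The fatty acid oxidation median stayed between -0.87 and -0.39 for Prkag2-p.R299Q against Myh6-R404Q, and the heat shock median between -0.72 and -0.45 for Prkag2-p.R299Q against WT. Of 780 values of named genes under alternatives, 642 lay inside the counting interval of the reported value, 126 lay outside it with the same sign and 12 had the opposite sign. Of 223 list medians, 159 stayed at least 1.2-fold off the median of all genes in the same direction, whatever their size, 59 came within 1.2-fold of it and 5 lay on its other side. Of 96 counts of genes past 2-fold, 42 were within 1.5 times the reported count. Depth limits these values, since intervals cover counting error only. The settings with no limit on the excluded genes, with lymphatic cells holding a macrophage or Schwann UMI left out, and with each gene of the rule left out in turn were chosen after seeing the data. The values that moved are given here by setting. A higher or lower minimum changes by construction how many genes enter, the Myh6-R404Q matrix as deposited holds all 3 libraries, and for the other settings the cause was not tested.

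With 0 UMIs allowed over the 6 excluded genes, the counts past 2-fold were 50 higher (Myh6-R404Q against WT), 63 higher and 183 lower (Prkag2-p.R299Q against WT) and 67 higher and 147 lower (Prkag2-p.R299Q against Myh6-R404Q). Share ratios were 0.488 for Myh6-R404Q against WT. List medians were -0.21 for heat shock (Myh6-R404Q against WT), -0.20 for lipid uptake, 0.005 for immediate early and 0.24 for clock (Prkag2-p.R299Q against WT) and -0.085 for immediate early (Prkag2-p.R299Q against Myh6-R404Q). Gene log2 ratios were -0.24 for Car10 (Prkag2-p.R299Q against WT) and -0.33 for Ppargc1a (Prkag2-p.R299Q against Myh6-R404Q). After thinning every barcode to 1000 UMIs, the counts past 2-fold were 89 higher and 112 lower (Myh6-R404Q against WT), 103 higher and 171 lower (Prkag2-p.R299Q against WT) and 141 higher and 193 lower (Prkag2-p.R299Q against Myh6-R404Q). Share ratios were 0.635 for Myh6-R404Q against WT. List medians were 0.18 for lymphatic valve and -0.18 for heat shock (Myh6-R404Q against WT), -0.22 for immediate early (Prkag2-p.R299Q against WT) and -0.041 for heat shock (Prkag2-p.R299Q against Myh6-R404Q). Gene log2 ratios were -0.68 for Art1 (Myh6-R404Q against WT) and -0.0066 for Ano4 (Prkag2-p.R299Q against WT). From the Myh6-R404Q matrix as deposited, which holds all 3 libraries, the counts past 2-fold were 0 higher and 0 lower (Myh6-R404Q against WT) and 2 higher and 11 lower (Prkag2-p.R299Q against Myh6-R404Q). Share ratios were 0.775 for Myh6-R404Q against WT and 0.784 for Prkag2-p.R299Q against Myh6-R404Q. List medians were 0.13 for lymphatic valve, -0.18 for heat shock and -0.12 for glucocorticoid and metal response (Myh6-R404Q against WT) and -0.20 for lipid uptake and -0.22 for immediate early (Prkag2-p.R299Q against Myh6-R404Q). Gene log2 ratios were -0.066 for Acta1 (Prkag2-p.R299Q against Myh6-R404Q). Without a limit on the 6 excluded genes, the counts past 2-fold were 18 lower (Myh6-R404Q against WT), 14 lower (Prkag2-p.R299Q against WT) and 6 higher and 6 lower (Prkag2-p.R299Q against Myh6-R404Q). Share ratios were 0.674 for Myh6-R404Q against WT and 0.759 for Prkag2-p.R299Q against WT. List medians were -0.25 for lymphatic valve, -0.12 for heat shock and -0.24 for glucocorticoid and metal response (Myh6-R404Q against WT), -0.20 for fatty acid oxidation, -0.29 for lipid uptake and 0.083 for cardiomyocyte (Prkag2-p.R299Q against WT) and -0.21 for lipid uptake and -0.082 for cardiomyocyte (Prkag2-p.R299Q against Myh6-R404Q). Gene log2 ratios were 0.36 for Cadm2 (Prkag2-p.R299Q against WT), 0.084 for Nkain2 (Prkag2-p.R299Q against WT) and 0.24 for Myo5b (Prkag2-p.R299Q against WT). Requiring 4 or more lymphatic genes, the counts past 2-fold were 36 higher (Myh6-R404Q against WT) and 74 lower (Prkag2-p.R299Q against Myh6-R404Q). List medians were -0.15 for heat shock and -0.19 for glucocorticoid and metal response (Myh6-R404Q against WT), -0.16 for lipid uptake and -0.25 for immediate early (Prkag2-p.R299Q against WT) and -0.26 for lipid uptake (Prkag2-p.R299Q against Myh6-R404Q). Gene log2 ratios were -0.098 for Mylk4 (Prkag2-p.R299Q against WT) and -0.03 for Ano4 (Prkag2-p.R299Q against WT). Leaving out Scrublet doublets, the counts past 2-fold were 33 higher (Myh6-R404Q against WT) and 41 higher (Prkag2-p.R299Q against WT). List medians were 0.23 for lymphatic valve (Myh6-R404Q against WT), -0.075 for immediate early and 0.17 for clock (Prkag2-p.R299Q against WT) and -0.22 for lipid uptake (Prkag2-p.R299Q against Myh6-R404Q). At a minimum of 10 CPM, the counts past 2-fold were 245 higher and 371 lower (Myh6-R404Q against WT), 247 higher and 443 lower (Prkag2-p.R299Q against WT) and 385 higher and 518 lower (Prkag2-p.R299Q against Myh6-R404Q). List medians were -0.021 for lipid uptake and 0.0042 for clock (Prkag2-p.R299Q against WT) and -0.22 for lipid uptake and -0.23 for heat shock (Prkag2-p.R299Q against Myh6-R404Q). A minimum of 100 CPM left fewer genes, and then the counts past 2-fold were 4 higher and 27 lower (Myh6-R404Q against WT), 8 higher and 21 lower (Prkag2-p.R299Q against WT) and 12 higher and 8 lower (Prkag2-p.R299Q against Myh6-R404Q). List medians were 0.069 for lymphatic valve (Myh6-R404Q against WT) and -0.15 for immediate early and 0.0047 for clock (Prkag2-p.R299Q against WT). With no minimum beyond 1 UMI, the counts past 2-fold were 1009 higher and 1298 lower (Myh6-R404Q against WT), 903 higher and 1554 lower (Prkag2-p.R299Q against WT) and 1324 higher and 1823 lower (Prkag2-p.R299Q against Myh6-R404Q). List medians were -0.021 for lipid uptake and 0.0038 for clock (Prkag2-p.R299Q against WT) and -0.22 for lipid uptake and -0.17 for heat shock (Prkag2-p.R299Q against Myh6-R404Q). Leaving out lymphatic cells with a macrophage or Schwann UMI, the counts past 2-fold were 59 higher (Myh6-R404Q against WT), 73 higher and 160 lower (Prkag2-p.R299Q against WT) and 87 higher and 182 lower (Prkag2-p.R299Q against Myh6-R404Q). List medians were 0.26 for lymphatic valve (Myh6-R404Q against WT) and -0.16 for immediate early (Prkag2-p.R299Q against WT). Gene log2 ratios were -3.35 for Car10 (Prkag2-p.R299Q against WT) and -0.082 for Ppargc1a (Prkag2-p.R299Q against Myh6-R404Q). With 2 or more lymphatic genes required, the counts past 2-fold were 44 lower (Myh6-R404Q against WT), 11 higher (Prkag2-p.R299Q against WT) and 7 higher and 15 lower (Prkag2-p.R299Q against Myh6-R404Q). List medians were 0.0062 for lymphatic valve and -0.26 for glucocorticoid and metal response (Myh6-R404Q against WT), -0.07 for lipid uptake, -0.27 for immediate early, 0.12 for clock and -0.062 for cardiomyocyte (Prkag2-p.R299Q against WT) and -0.22 for lipid uptake, -0.18 for immediate early, -0.23 for heat shock and -0.11 for cardiomyocyte (Prkag2-p.R299Q against Myh6-R404Q). As a mean over cells of each cell's CPM, the counts past 2-fold were 51 higher and 113 lower (Prkag2-p.R299Q against WT) and 55 higher and 80 lower (Prkag2-p.R299Q against Myh6-R404Q). List medians were -0.21 for immediate early and 0.25 for clock (Prkag2-p.R299Q against WT) and -0.24 for heat shock (Prkag2-p.R299Q against Myh6-R404Q). Keeping only barcodes with at least 1000 UMIs, the list medians were 0.25 for lymphatic valve, -0.25 for heat shock and -0.24 for glucocorticoid and metal response (Myh6-R404Q against WT), -0.25 for immediate early (Prkag2-p.R299Q against WT) and -0.27 for heat shock (Prkag2-p.R299Q against Myh6-R404Q). For a pseudocount of 5 CPM, the list medians were 0.24 for clock (Prkag2-p.R299Q against WT) and -0.28 for heat shock (Prkag2-p.R299Q against Myh6-R404Q).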

Other observations

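Proliferation genes were near the limit of detection in the lymphatic cells. The 10 cell cycle genes summed to 22.6, 110 and 22.3 CPM in WT, Myh6-R404Q and Prkag2-p.R299Q. Top2a, the topoisomerase of dividing cells, gave 1, 19 and 1 UMIs, and the 19 came from 3 Myh6-R404Q cells. Capillary barcodes of the same libraries held Top2a at 2.0, 25 and 5.86 CPM. Mki67, the other common proliferation marker, was seen in 9 of 896 (1.0%), 6 of 352 (1.70%) and 6 of 240 (2.50%) lymphatic cells.

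Rgs5, a pericyte gene, stood at 75.2, 39.3 and 8.56 CPM in the lymphatic cells and at 186, 116 and 165 CPM in capillary barcodes. Mecom, a transcription factor gene of arterial endothelium, stood at 317, 165 and 175 CPM, highest in WT, and Fbln5, an elastic fibre gene, at 71.0, 100.2 and 134 CPM, lowest in WT. Both were named from the arterial list, whose other members stayed under 50 CPM apart from Stmn2 (45.3, 48.7 and 53.1 CPM).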
